A study of Homo sapiens with 8 samples.

Results

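SELENOW, SELENOH and SELENOP are the selenoprotein genes described here, and the RNA of each was lower in K562 cells grown with a plant extract than in cells grown without it. The 3 genes were taken by name from a deposited expression table of 1950 genes. That table was selected on the authors' own comparison of these same libraries, for genes that differed 1.5-fold or more. The members were thus chosen by their difference between the groups, and its direction and size are given as a description. K562 is an established human line from a chronic myeloid leukemia. The extract group had 4 libraries from cells treated with Caulis Polygoni Multiflori (CPM), the stem of a medicinal vine, at 80 µg/mL for 3 days. The control group had 4 libraries from K562 cells without CPM, whose time in culture the labels do not give, so that time and the extract cannot be told apart. All cells grew in medium with fetal bovine serum, penicillin and streptomycin. The labels do not say whether replicate libraries were grown separately, so spreads and standard errors cover only the differences between these libraries, which may be technical.

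Selenoproteins carry selenocysteine, an amino acid with selenium in place of the sulfur of cysteine. Selenocysteine is written as UGA, which otherwise ends translation, and ribosomes read through it only with the help of a stem-loop in the 3′ untranslated region (the SECIS element) and a dedicated binding protein and elongation factor. Most selenoproteins are redox enzymes, among them glutathione peroxidases, thioredoxin reductases and iodothyronine deiodinases. The mRNAs of some of them, SELENOW and SELENOH included, are known to decline when selenium is scarce, because a UGA that is not read through can mark an mRNA for decay. SELENOW codes for a small protein with a thioredoxin fold that is abundant in muscle and brain. SELENOH codes for a small oxidoreductase of the nucleus and nucleolus. SELENOP codes for a secreted protein, made mainly in liver, that carries selenium in plasma to other tissues.

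The UGA codons that define these genes are shown first, since they are what the members share. The stretches below are coding sequence of the GENCODE 29 transcripts (GRCh38), written 5′ to 3′ as DNA, with in-frame TGA codons for selenocysteine in capitals. They run from codon 3 to 23 of SELENOW, from codon 34 to 54 of SELENOH, from codon 49 to 69 of SELENOP, and from codon 295 of SELENOP to its last, 381.
SELENOW: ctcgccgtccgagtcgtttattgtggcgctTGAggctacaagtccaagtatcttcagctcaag
SELENOH: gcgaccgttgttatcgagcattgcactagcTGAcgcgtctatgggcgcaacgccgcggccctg
SELENOP, first UGA: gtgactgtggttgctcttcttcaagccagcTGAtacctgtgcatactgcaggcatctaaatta
SELENOP, last UGAs: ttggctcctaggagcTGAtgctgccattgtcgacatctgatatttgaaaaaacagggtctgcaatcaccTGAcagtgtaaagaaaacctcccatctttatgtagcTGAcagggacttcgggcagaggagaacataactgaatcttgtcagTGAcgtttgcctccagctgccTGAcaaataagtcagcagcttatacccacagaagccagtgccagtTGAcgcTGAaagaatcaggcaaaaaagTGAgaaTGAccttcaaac

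In the transcript chosen for each, SELENOW and SELENOH have 1 UGA, in a like setting. A cysteine codon stands 3 codons before it, TGT in SELENOW and TGC in SELENOH. GENCODE marks 3 selenocysteine positions in another transcript of SELENOW. In SELENOP the first UGA has a cysteine codon, TGC, 3 codons after it. The UGA of SELENOW is codon 13 of 87, in exon 2 of 6 (chr19:47780732-47780734, plus strand). That of SELENOH is codon 44 of 122, in exon 2 of 3 (chr11:57741816-57741818, plus strand). SELENOP has 10 UGA codons in 381. The first is codon 59, in exon 2 of 5 (chr5:42808177-42808179, minus strand), and the other 9 lie between codons 300 and 378, all in exon 5. Among the 25 human selenoprotein genes, GENCODE marks 1 such codon in the chosen transcript of 22, 2 in that of DIO2 and SELENON, and 10 in that of SELENOP. The coding sequence of SELENOW is the shortest of the 25.

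**Figure D1:**
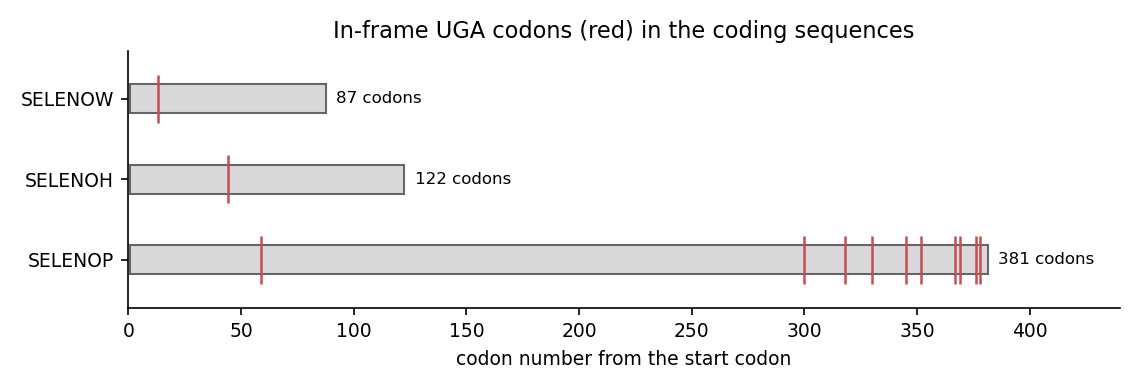
Coding sequences of SELENOW, SELENOH and SELENOP drawn to scale as grey bars, with the codon number on the horizontal axis and each in-frame UGA codon as a red line. In the chosen transcripts, SELENOW and SELENOH have 1 UGA each, at codons 13 and 44. SELENOP has 1 at codon 59 and 9 between codons 300 and 378.

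SELENOW (ENSG00000178980, chr19:47778572-47784686, plus strand) had expression values of 116.23, 116.32, 131.2 and 127.89 in controls 2, 3, 4 and 5. With the extract its values were 62.67, 60.79, 62.67 and 65.75 in libraries 1, 2, 3 and 4. The lowest control was far above the highest extract library, and controls 4 and 5 stood above controls 2 and 3. The group means were 123 ± 7.78 and 63.0 ± 2.05 (SD, n = 4 each), so the extract mean was 51.2% of the control mean. In limma, fitted to log2(value + 1) of all tested genes, the log2 change (extract minus control) was −0.95 with a standard error of 0.05. No source used here gives a unit for the deposited values, so levels of different genes are not ranked against each other.

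SELENOH (ENSG00000211450, chr11:57741250-57743554, plus strand) was the steadiest of the members in control cells. Its control values were 69.5, 72.28, 71.96 and 70.8 in libraries 2, 3, 4 and 5. Its extract values were 43.04, 39.93, 44.32 and 41.3 in libraries 1, 2, 3 and 4. Again no extract library reached any control. The means were 71.1 ± 1.26 and 42.1 ± 1.93 (SD, n = 4 each), with the extract mean at 59.3% of control. The log2 change in limma was −0.74 with a standard error of 0.041.

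SELENOP (ENSG00000250722, chr5:42799880-42887392, minus strand), the selenium carrier, was detected in every library. Its control values were 16.54, 14.55, 16.48 and 17.55 in libraries 2, 3, 4 and 5, of which control 3 was lowest. With the extract it had 10.96, 9.16, 11.08 and 9.21 in libraries 1, 2, 3 and 4, where 1 and 3 lay above 2 and 4. The groups did not overlap. The means were 16.3 ± 1.25 and 10.1 ± 1.06 (SD, n = 4 each), so the extract mean was 62.1% of control. The log2 change in limma was −0.64 with a standard error of 0.087, the widest of the members. In bulk RNA, fewer cells that express a gene and less RNA per cell cannot be told apart.

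**Figure D2:**
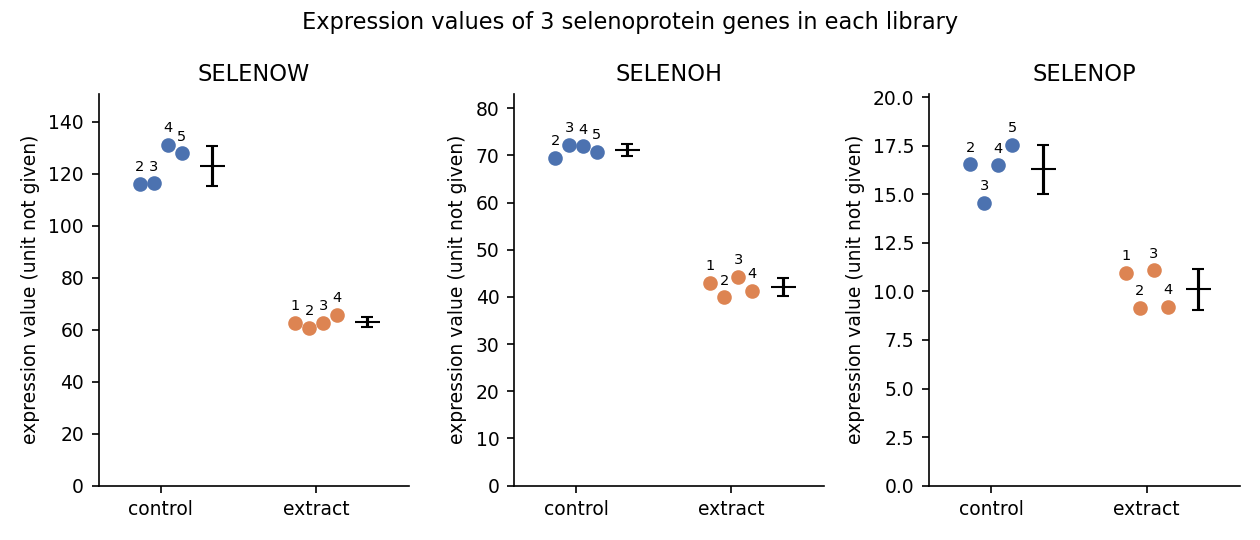
Expression values (unit not given) of SELENOW, SELENOH and SELENOP in the 4 control libraries (blue, numbered 2 to 5) and the 4 extract libraries (orange, numbered 1 to 4), with black bars for the mean and SD. In each gene all extract libraries lie below all controls, with means of 63.0 against 123, 42.1 against 71.1 and 10.1 against 16.3.

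All 3 members passed as lower in limma (adjusted p under 0.05 by Benjamini-Hochberg over 750 tested genes), where 56.0% of the tested genes did so. A gene was tested if 4 or more of the 8 libraries had a value of 1 or higher, and the 3 members all met this. After quantile normalization SELENOW missed the threshold (limma adjusted p = 0.0598). Extract libraries lay wholly below controls for these 3 genes and for 45.9% of the tested genes. Nothing is read from these counts, because the table was made from the same contrast. The median log2 change was −0.74 over the members, −0.50 over all 750 tested genes and −0.66 over the 420 called lower. Among the tested genes, 61 had a more negative log2 change than SELENOW, 160 than SELENOH and 238 than SELENOP.

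**Figure D3:**
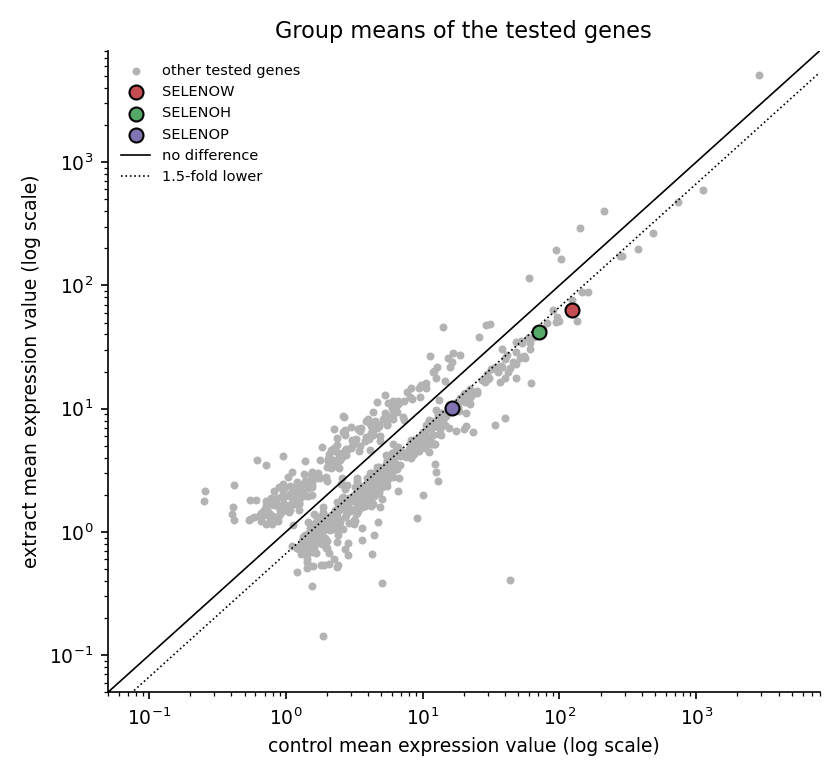
Mean expression value of each tested gene in control (horizontal) and extract libraries (vertical), both on log scales, with a line of no difference and a dotted line at 1.5-fold lower. SELENOW (123 and 63.0), SELENOH (71.1 and 42.1) and SELENOP (16.3 and 10.1) lie under the line of no difference, inside the band of other lower genes.

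The size of the difference, and even its order among the 3 genes, depended on which deposited numbers were read. By the ratio of mean expression values, SELENOW differed most and SELENOP least, with log2 ratios of −0.96, −0.76 and −0.69 for SELENOW, SELENOH and SELENOP. In the authors' deposited table the order is the opposite, with log2 fold changes of −0.62, −0.67 and −0.74. SELENOH and SELENOP thus moved little between the measures, by −0.08 and 0.05, and SELENOW by −0.34. Over the 747 tested genes with both means above 0, the median absolute gap between the measures was 0.05, and 6.83% of them had a wider gap than SELENOW. No source used here tells how the deposited fold changes were computed. The adjusted p-values in the authors' deposited table were 5.82e-43 for SELENOW, 1.82e-38 for SELENOH and 2.43e-24 for SELENOP. By deposited p-value they stood at ranks 58, 70 and 123 of the 1950 listed genes.

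**Figure D4:**
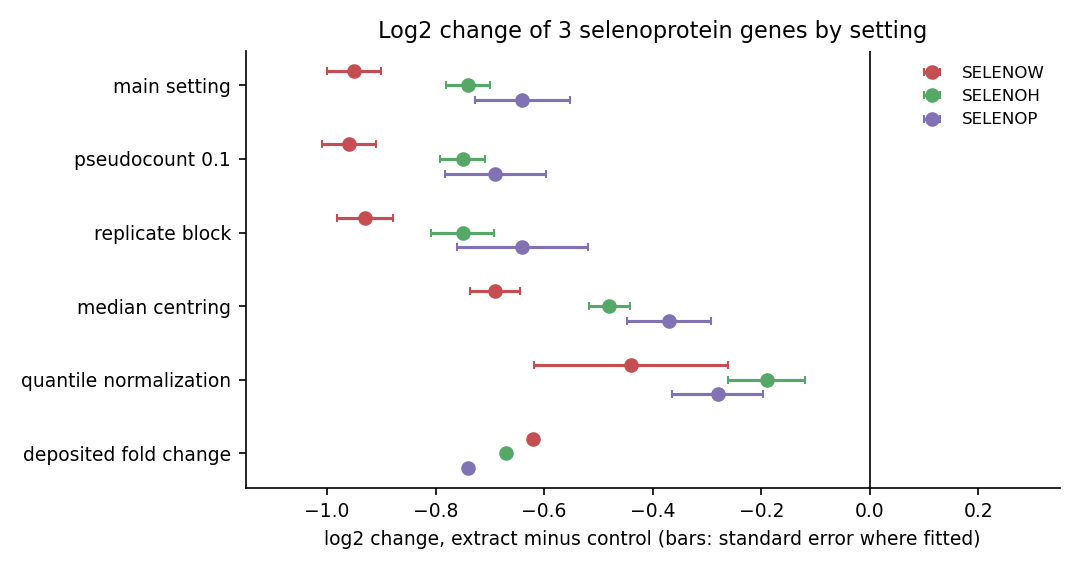
Log2 change (extract minus control) of SELENOW (red), SELENOH (green) and SELENOP (purple) under the main setting, other settings and as the authors' deposited fold change, with standard errors where a model was fitted. Each value lies below 0, and the order seen in the main setting (−0.95, −0.74 and −0.64) is turned round in the deposited fold changes (−0.62, −0.67 and −0.74).

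The library medians over tested genes differed by −0.27 (log2, extract minus control). Centring the libraries on them gave −0.69 for SELENOW, −0.48 for SELENOH and −0.37 for SELENOP. Quantile normalization gave −0.44, −0.19 and −0.28 in the same order. Both scalings rest on genes that were themselves picked as changed. Median centring moves every gene by the same amount by construction, while the unequal moves under quantile normalization, and the wider standard error of SELENOW there (0.179), were not tested for a cause.

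Ratios between the members within a library do not change when all values of the library are multiplied by 1 factor. SELENOW over SELENOH was 1.67, 1.61, 1.82 and 1.81 in controls 2, 3, 4 and 5 and 1.46, 1.52, 1.41 and 1.59 in extract libraries 1, 2, 3 and 4. The lowest control ratio, 1.61, was just above the highest extract ratio, 1.59, and the means were 1.73 ± 0.104 and 1.5 ± 0.0779 (SD, n = 4 each). SELENOW over SELENOP ran from 7.03 to 7.99 in controls and from 5.66 to 7.14 with the extract, so these groups overlapped. SELENOH over SELENOP ran from 4.03 to 4.97 and from 3.93 to 4.48, with means of 4.39 ± 0.407 and 4.19 ± 0.271 (n = 4 each), a difference smaller than the spread. By the deposited fold changes (log2 −0.62 and −0.67), SELENOW instead fell less than SELENOH, so the direction of their ratio depends on the measure. No test is given, since these ratios come from the contrast that chose the genes.

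**Figure D5:**
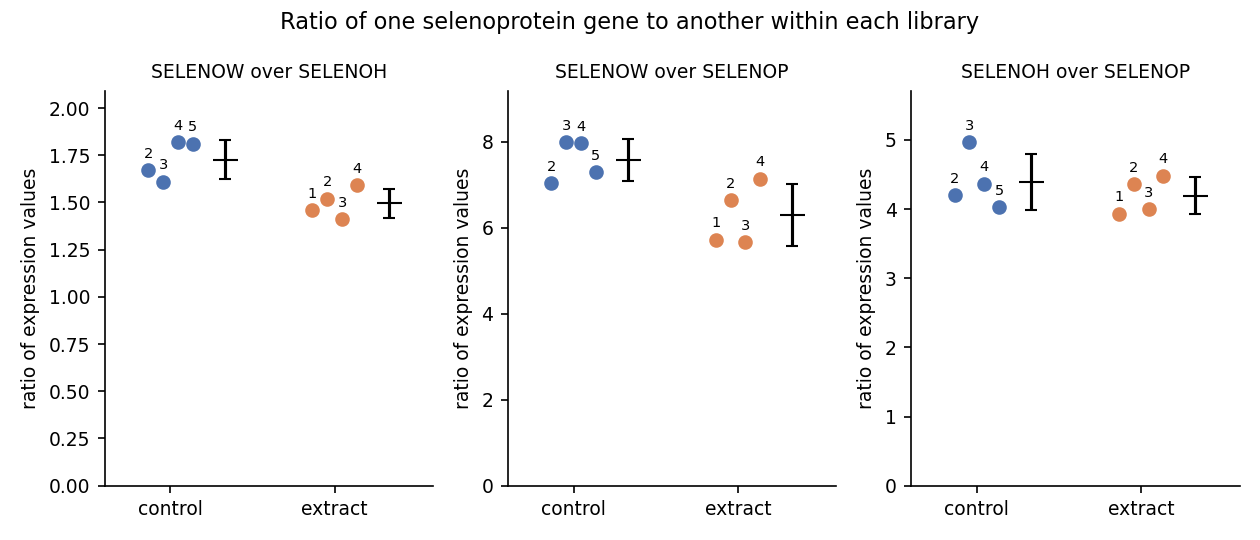
Ratio of expression values of one selenoprotein gene to another within each library, for controls (blue, 2 to 5) and extract libraries (orange, 1 to 4), with black bars for mean and SD. SELENOW over SELENOH is lower in all extract libraries (1.41 to 1.59) than in controls (1.61 to 1.82), while both ratios to SELENOP overlap between the groups.

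Spread between libraries of a group differed among the members. The coefficient of variation (SD as a percentage of the mean) of SELENOH in controls was 1.77%, against a median of 6.25% for the 46 tested genes with a control mean within 2-fold of its own. SELENOH had 4.57% with the extract, against a median of 7.98% for 48 genes chosen likewise. For SELENOW the coefficient was 6.33% in controls, above the median of 4.02% for 20 such genes, of which 11 were lower. With the extract SELENOW had 3.26%, below the median of 7.61% for 27. SELENOP had 7.70% and 10.5%, near the medians of 9.11% and 11.1%. After the group means were taken out, the deviations of SELENOH and SELENOP over the 8 libraries had a Pearson r of 0.56, those of SELENOW and SELENOP 0.28 and those of SELENOW and SELENOH 0.16. These are descriptions of 8 libraries of unknown depth.

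The genes whose deviations from the group means were most like those of each member were taken by the highest Pearson r over the 8 libraries, among 568 tested genes with a symbol. For SELENOW these were GNG3, a G-protein gamma subunit (r = 0.96), SLX1B, a subunit of a DNA endonuclease with a near-identical copy, SLX1A (r = 0.95), and the readthrough locus ATP5MF-PTCD1 (r = 0.95). GNG3 and ATP5MF-PTCD1 were higher with the extract (log2 changes of 0.78 and 0.60) and SLX1B was lower (−0.90). GNG3 was low, at 0.2 to 0.63 in controls and 1.19 to 1.51 with the extract. It was thus tested only through its extract values, and nothing is read from its direction. Like SELENOW, GNG3, SLX1B and ATP5MF-PTCD1 had higher values in controls 4 and 5 than in controls 2 and 3. For SELENOH they were MCF2, a guanine nucleotide exchange factor (r = 0.90), HS6ST1, a heparan sulfate sulfotransferase (r = 0.86), and TLCD4 (r = 0.83). For SELENOP they were PDK4, a kinase that inhibits pyruvate dehydrogenase (r = 0.92), the locus CICP14 (r = 0.89) and PAGE1 (r = 0.88). PDK4 was lower with the extract as well, with 5.16, 4.55, 4.89 and 5.66 in controls 2, 3, 4 and 5 and 1.99, 1.64, 2.03 and 1.77 in extract libraries 1, 2, 3 and 4. As in SELENOP, control 3 was its lowest control and extract libraries 2 and 4 its lowest values. The other genes did not share 1 direction. CICP14, HS6ST1 and MCF2 had log2 changes of 1.01, 0.50 and 0.27, and PAGE1 and TLCD4 of −0.75 and −0.81. The tested locus TLCD4-RWDD3 went the other way from TLCD4, with means of 9.54 in control and 12.5 in extract libraries. No source used here tells how reads that fit both loci were counted. The genes named for each member were the highest of 568 over 8 libraries, and no test is attached to their coefficients.

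DIO1 was the other selenoprotein gene in the table, and it was barely detected. It codes for a deiodinase that activates thyroid hormone. Its values were 0.09, 0.04, 0 and 0 in controls 2, 3, 4 and 5 and 0.12, 0.17, 0.25 and 0.09 in extract libraries 1, 2, 3 and 4, so the groups met at 0.09. It was too low for the test, and the authors' deposited table gives it an adjusted p of 0.219. Thus 4 of the 25 selenoprotein genes were listed, 3 lower and 1 higher, where the table as a whole holds 3.21% of the 60664 genes its adjusted p-values imply. That family may include many genes without reads, so the share is a rough guide. The other 21, among them the peroxidases GPX1 and GPX4, the reductases TXNRD1 and TXNRD2, and SELENOK, SELENOS and SELENOT of the endoplasmic reticulum, were not analysed here.

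None of the 20 genes for making and inserting selenocysteine and for handling selenium was in the table (0 listed), so SECISBP2, EEFSEC, SEPSECS, PSTK, the selenocysteine lyase gene SCLY and the SELENOP receptor genes LRP8 and LRP2 were not analysed here. Of 35 genes of the thioredoxin and glutathione systems without selenocysteine, 3 were listed and 2 were tested, of which 1 rose and 1 fell. Over all tested genes, limma called 26.8% higher and 56.0% lower, so nothing is read from this count. TXNIP, whose protein binds and inhibits thioredoxin, rose from 102 ± 1.77 to 162 ± 2.62 (log2 change 0.67, limma adjusted p = 3.6e-07). SLC7A11, the cystine transporter that feeds glutathione synthesis, fell from 4.61 ± 0.414 to 2.79 ± 0.17 (log2 change −0.56, limma adjusted p = 0.000772). Adjusted over the implied 60664 genes, SLC7A11 missed the threshold (limma adjusted p = 0.0625). GPX8, a peroxidase of the endoplasmic reticulum with cysteine in place of selenocysteine, had 1.69, 1.01, 0.66 and 0.35 in controls 2, 3, 4 and 5 and 0.28, 0.21, 0.67 and 1.22 in extract libraries 1, 2, 3 and 4. Its groups overlapped and it was too low for the test. The authors' deposited table gives GPX8 a log2 fold change of −1.48 with an adjusted p of 0.00357. The log2 ratio of its mean expression values was −0.64.

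Of 25 NRF2 and metal-response targets, 3 were listed and 2 were tested, and both fell, where 56.0% of all tested genes were called lower. These were SLC7A11 and the metallothionein gene MT1X, which went from 5.81 ± 1.71 to 2.79 ± 0.631 (log2 change −0.83, limma adjusted p = 0.00461, and 0.373 over that family). MT1X had a control value of 8.35 in library 4 against 4.65 to 5.34 in the others, and its extract values ran from 2.24 to 3.54. Its adjusted p in the authors' deposited table was 0.22. Metallothionein genes are near-identical copies of each other, so their reads may have been split. MT1F was listed at 0 in all extract libraries and in control 2, and at 0.04 to 1.12 in the other controls. Of 7 genes for 14-3-3 proteins, 1 was listed, SFN. It fell from 1.61 ± 0.321 to 0.823 ± 0.208 (log2 change −0.52, limma adjusted p = 0.00617). SFN passed the filter only through its control values (1.26 to 2.03, against 0.66 to 1.11 with the extract). Nothing is thus read from its direction. SELENOW is reported to bind some 14-3-3 proteins, and its binding to SFN was not tested here. The call of SFN was lost over that family (limma adjusted p = 0.499) and with median centring (log2 change −0.25, limma adjusted p = 0.12). These genes too were in the table because they differed between the same libraries, with 82.8% of the tested genes called in either direction.

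Markers of cells other than K562 were looked at because SELENOP is made mainly by liver cells and also by macrophages. None of 13 hepatocyte genes was listed (0). Of 10 macrophage and monocyte genes, CD68 fell from 22.3 ± 0.737 to 14.6 ± 0.75 and VSIG4 was at or under 0.27 in every library. Of 9 stromal and epithelial genes, COL1A1 was listed, at or under 0.67 in every library. Of 10 megakaryocyte genes, GP1BB was listed with 81.2 ± 27.3 and 49.8 ± 5.63 and ITGA2B with 3.48 ± 0.718 and 2.02 ± 0.438 in control and extract libraries. Of 13 K562 and erythroid genes, the embryonic globin gene HBZ was listed and rose from 2876 ± 47.2 to 5097 ± 149 (log2 change 0.83, limma adjusted p = 3.99e-08), opposite in direction to the members. The listed markers were in the table because they differed between these same libraries, and 82.8% of the tested genes were called in either direction. Nothing is read from the directions of these markers. Markers not in the table were not analysed here, and the part of any other cell type in the values of SELENOP was not tested.

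Neighbouring and overlapping annotation limits what the values can be tied to. A processed pseudogene, SELENOWP1 (chr1:31094987-31095558), matches the SELENOW transcript at 91.2% of 249 aligned bases. It was not in the table, and no source used here tells how reads that fit both were counted. SELENOH lies inside the longer readthrough gene TMX2-CTNND1 and shares 1392 bases with a second readthrough gene on its strand, which joins SELENOH to CTNND1. That second gene was listed, at 0 to 0.23 in controls and 0 to 0.47 with the extract. SELENOP overlaps CCDC152 on the opposite strand by 2481 bases. No source used here tells whether counting used strand, so reads from that overlap, which holds exon 5 with 9 of the UGA codons, may belong to either gene. The first UGA lies outside it. The transcripts chosen for SELENOW, SELENOH and SELENOP were 888, 833 and 2243 bases long, with 58.6%, 54.7% and 38.1% G or C.

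The windows just upstream of the RefSeq starts (250 bases, GRCh38.p14) showed no motif common to the 3 genes among 8 that were searched on both strands. The search covered the E-box CACGTG, the antioxidant response element core TGACNNNGC, the metal response element core TGCNCNC, the GC box GGGCGG, the FOXO motif GTAAACA, the GATA motif AGATAA, the STAT motif TTCNNNGAA and the TATA motif TATAAA. Apart from a GC box of SELENOH, matches are printed in capitals in the stretches of 30 bases below, 5′ to 3′ on the strand of the gene, because they are the matches by which the 3 windows differ.
SELENOW, GC box (chr19:47778612-47778641): cctctCCGCCCaCCGCCCaCCGCCCctccc
SELENOH, E-box (chr11:57741419-57741448): ccgcctccaggcCACGTGggtgctgcgggc
SELENOP, antioxidant core (chr5:42811973-42812002): ttgctctgcttGCAAGGTCActgcaagaat
SELENOP, FOXO and TATA (chr5:42811913-42811942): gtgagGTAAACAacaggacTATAAAtatca

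SELENOW had 3 GC boxes in its window and SELENOH 1, a motif found in 42.6% of 35116 RefSeq windows of this length. The E-box of SELENOH is found in 6.34% of them. In SELENOP, the antioxidant core is a motif of 10.9% of windows, the FOXO motif of 2.98% and the TATA motif of 10.7%. The window of SELENOW was 70.4% G or C, that of SELENOH 62.4% and that of SELENOP 39.6%, against a median of 58.0% over all windows. Some GENCODE transcripts of each gene start further upstream and include these stretches. A match says only that the letters are there, and no binding was measured.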

How the data were processed

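RNA was sequenced from 8 K562 libraries. Per the submitters' processing notes, HISAT2, StringTie and GRCh38 were used, with no version or role given. The authors deposited 1 signal value per gene and library, called the expression value here, with no unit given; it is not a count, so depth is unknown and no counting interval is given. For each gene the authors also deposited a fold change (a ratio), a log2 fold change, and a raw and an adjusted p-value. The lowest absolute deposited log2 fold change was 0.5851 and the highest p-value 0.0499. Adjusted p-values fitted a family of 60664 genes (100% of 1377 usable genes gave a rank within 0.02 of a whole number).

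Differences were fitted with limma 3.58.1 under R 4.3.3 (trend, robust) on log2(value + 1) for the 750 genes with at least 1 in at least 4 libraries, Benjamini-Hochberg over these. On simulated data for this comparison (750 genes, 200 changed), it recovered 69% of genes changed 1.5-fold, with 3.6% false calls among all calls. Genes named are the members, the listed genes of 5 gene lists and 5 marker lists, and 3 genes most like each member. Members and lists were chosen with earlier results of these data known. Positions came from GENCODE 29, matched by Ensembl ID (1943 of 1950 listed genes matched the gene name table). Same-numbered libraries of the groups had deviations correlated at 0.0754, 0.0754 and 0.149, and the other pairs ran from −0.124 to 0.136. These weak coefficients do not settle whether same-numbered libraries were pairs. The main fit did not pair them, and a fit with the number as a block is given below.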

Additional observations from a re-analysis of the deposited data

How the results depend on the processing

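Leaving out 1 library at a time, the log2 change ran from −0.98 to −0.92 for SELENOW, from −0.77 to −0.72 for SELENOH and from −0.69 to −0.60 for SELENOP. Over these 8 fits the tested genes called numbered 538 to 584, with 163 to 190 higher and 369 to 394 lower. Of 621 calls (201 higher, 420 lower), 167 were left over the family of 60664 genes (45 higher, 122 lower). Calls lower with the extract numbered 241 with median centring and 251 with quantile normalization. Without a filter, calls higher numbered 314, but over all 1950 listed genes instead of 750. Median centring gave −0.69, −0.48 and −0.37 for SELENOW, SELENOH and SELENOP, and quantile normalization −0.44, −0.19 and −0.28. The fold changes in the authors' deposited table were −0.62 for SELENOW and −0.67 for SELENOH. Beyond the equal shift that median centring makes by construction, the cause was not tested. With the replicate number as a block on the 6 libraries whose numbers both groups share, the log2 changes were −0.93, −0.75 and −0.64. The same libraries without the block gave the same log2 changes, a comparison added after the data were seen. Calls numbered 515 with the block and 527 without it. Standard errors with and without the block were 0.051 and 0.062 for SELENOW, 0.058 and 0.053 for SELENOH, and 0.121 and 0.098 for SELENOP. Extract libraries 2, 3 and 4 each correlated best with the control of the same number, while control 2 correlated best with extract 1 (0.136). In 56 groups of 4 libraries, none (0) had an end value whose gap to the next exceeded 0.829 of the group's range. With 4 values this rule marks only extreme libraries, and it left the 8.35 of MT1X in control 4 unmarked. Depth is unknown, so counting error at the low values of DIO1, GPX8, MT1F and GNG3 could not be given.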
